A study of Homo sapiens with 12 samples.

Results

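The genes described here are 10 members of the Notch pathway, the receptors NOTCH1, NOTCH2 and NOTCH3, the ligands JAG1, JAG2 and DLL1, and the targets HES1, HES4, HEY1 and NRARP. They were chosen by name and are 10 of the 60617 genes in the files. Each was followed by its gene ID through all 12 libraries and compared only between libraries of one experiment. The cells were A549, a line from a human lung adenocarcinoma. In the knockdown experiment, 3 libraries of cells carrying an shRNA against BTLA (shBTLA) were set against 3 of cells carrying a control shRNA (shControl). In the sort, 3 libraries of cells sorted for low surface BTLA (BTLA-low) were set against 3 of cells sorted for high surface BTLA (BTLA-high). BTLA is an inhibitory receptor known from lymphocytes, and the study asked what it does in the tumor cells themselves. The labels name no shRNA for the sorted cells, which were separated with an antibody to BTLA. All groups share one line, and the study describes culture of the sorted cells. The sources used here do not say which shRNA was sequenced, whether RNA of the sorted cells was taken before or after that culture, or whether the libraries of a group were separate cultures. The p-values therefore reflect how much these libraries vary, and that variation could be technical.

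Notch receptors are cut by furin on their way to the cell surface and meet Jagged or Delta ligands on a neighbouring cell. Binding pulls the receptor open, ADAM proteases and then gamma-secretase cut it, and the freed intracellular part enters the nucleus. There it joins the DNA-binding protein RBPJ and a Mastermind protein and switches on targets such as HES and HEY repressors and NRARP, which feeds back on the complex. In the airway epithelium, Notch signaling is known for steering cells toward secretory and away from ciliated fates.

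HES1 and HES4 are shown by sequence, because they are the 2 of 8 matched members whose promoters hold the core letters that RBPJ recognises. The RefSeq promoter table for GRCh38.p14 held all members but DLL1 and HEY1. The letters searched were TGGGAA on both strands of the 250 bases before each RefSeq start. HES1 held them at 2 places, 84 to 79 and 70 to 65 bases before its start, and HES4 at 1 place, 76 to 71 bases before its start. The longer form GTGGGAA, which contains TGGGAA, was found once in each. NOTCH1, NOTCH2, NOTCH3, JAG1, JAG2 and NRARP held neither form in this window. For NOTCH2 the window, 120069663 to 120069912, lies wholly inside the gene as annotated for these data, 119911553 to 120100779. For JAG2 it lies partly inside the annotated gene. Of 35116 promoters of the same length, 20.8% held TGGGAA and 5.43% held GTGGGAA, and a match is a description of letters and not of binding. The stretches are chr3:194135898-194136147 on the plus strand for HES1 and chr1:1000168-1000347 on the minus strand for HES4. They run 5′ to 3′ with TGGGAA in capitals, and the HES4 stretch ends at the match. The files place the start of HES4 upstream of the RefSeq start, so that 75 bases of the RefSeq window, most of the match among them, lie inside the gene as they annotate it.
HES1: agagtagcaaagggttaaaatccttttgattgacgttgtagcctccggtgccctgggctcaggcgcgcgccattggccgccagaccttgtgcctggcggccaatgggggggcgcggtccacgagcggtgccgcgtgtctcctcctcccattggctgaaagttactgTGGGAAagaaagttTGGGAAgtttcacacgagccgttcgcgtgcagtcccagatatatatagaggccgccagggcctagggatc
HES4: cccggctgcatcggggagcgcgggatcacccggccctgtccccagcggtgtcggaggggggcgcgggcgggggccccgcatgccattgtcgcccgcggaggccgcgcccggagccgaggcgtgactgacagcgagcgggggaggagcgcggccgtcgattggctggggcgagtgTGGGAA

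The libraries held 35654912 to 41748767 reads assigned to genes in shBTLA, 29130357 to 38809988 in shControl, 29383169 to 41474710 in BTLA-low and 31650496 to 42488067 in BTLA-high. Levels are given as RPM, the share of a library's assigned reads scaled to a fixed total, and a count of 0 allows up to 0.0706 to 0.103 RPM, the worth of 3 reads, counting error only. BTLA itself had 2 reads in shControl 3, 2 in BTLA-high 3 and 0 in the other 10 libraries, so its RNA cannot check the labels. KRT8 and KRT18, keratins of simple epithelium, led the epithelial markers in every group, and the summed lymphocyte markers reached no more than 1.22 RPM in any library. Along the first principal component, shControl 1 stood apart in the knockdown, at 63.5 against -36.0 to 11.5 in the other 5 libraries.

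Compared per kilobase of merged exons, the targets HES4 and HES1 and the ligands JAG1 and JAG2 had the highest levels of the 10 genes, and DLL1 and HEY1 the lowest. In BTLA-low, HES4 was at 23.4 ± 2.63 RPM per kb (SD, n = 3) and HES1 at 17.0 ± 1.67, followed by JAG2 at 11.6 ± 0.209, JAG1 at 10.0 ± 1.48 and NOTCH1 at 7.21 ± 1.09. NRARP at 3.01 ± 0.569, NOTCH3 at 2.65 ± 0.416 and NOTCH2 at 2.20 ± 0.506 came next, before DLL1 at 0.126 ± 0.0528 and HEY1 at 0.0628 ± 0.00713. The library ranges of JAG2 and JAG1, of NRARP and NOTCH3, and of NOTCH3 and NOTCH2 overlapped in this order, so those neighbours did not differ beyond their spread. The exon length used for HEY1, 5487 bases, is longer than the annotated span of the counted gene, 79764010 to 79767857. The level of HEY1 per kb is therefore too low in every group, and its order against DLL1 is not settled. In BTLA-high, NOTCH3 stood below NOTCH2, at 1.19 ± 0.155 RPM per kb for NOTCH3 and 2.36 ± 0.324 for NOTCH2 (SD, n = 3). HES1 there was at 10.96 ± 2.05 RPM per kb, between JAG1 at 11.4 ± 2.35 and JAG2 at 9.73 ± 0.381, with overlapping ranges. The order in shBTLA was HES4, HES1, JAG1, JAG2, NOTCH1, NRARP, NOTCH2, NOTCH3, HEY1 and DLL1, and shControl differed from it only in JAG1 standing above HES1. In both, the ranges of HES1 and JAG1, of JAG2 and NOTCH1, and of HEY1 and DLL1 overlapped, as did those of NRARP and NOTCH2 in shControl.

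**Figure D1:**
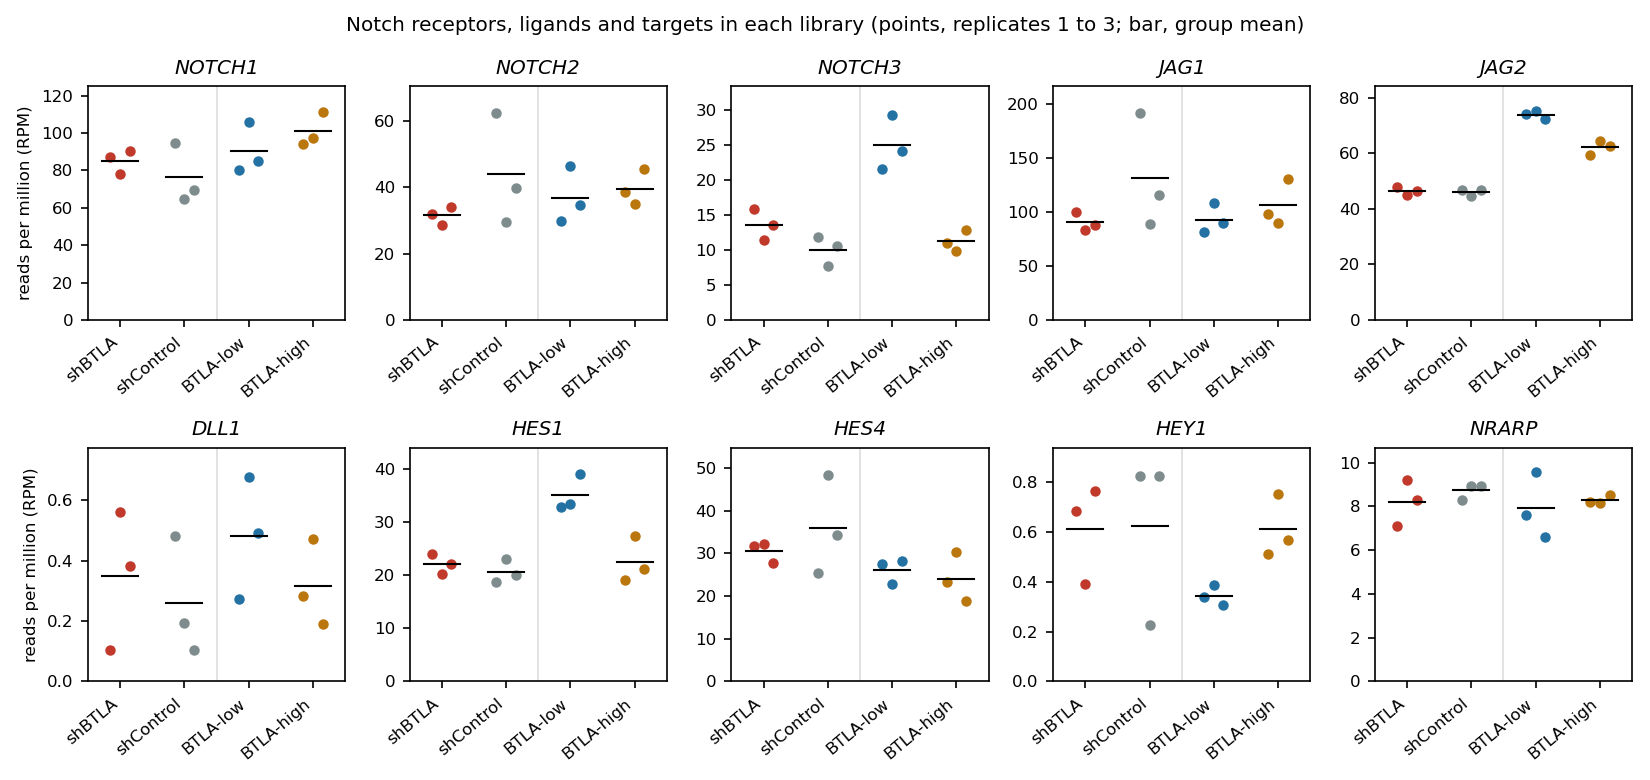
Level of each of the 10 genes in RPM (y axis, linear, from 0) in the 3 libraries of each group (x axis), with a bar at the group mean. NOTCH3, HES1 and JAG2 lie higher and HEY1 lies lower in every BTLA-low library than in any BTLA-high library, and no gene separates shBTLA from shControl.

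In the sort, 3 of the 10 genes rose in BTLA-low cells, NOTCH3, HES1 and JAG2, and 0 fell (limma with Benjamini-Hochberg adjustment over all 16911 genes tested, adjusted p under 0.05; voom gave the same counts). Among all genes tested, 25.4% were called, 19.1% higher and 6.25% lower, so the count of members called was near the background. No further member reached an unadjusted p under 0.05, which 38.8% of all genes did. The groups did not overlap for 4 of the 10 genes, these 3 and HEY1, where 41.8% of all genes did not overlap. The median log2 fold change of the 10 genes was 0.03, and that of all genes tested was 0.18. These fold changes come from log2(RPM + 0.1), and the added 0.1 shrinks those of low genes. In bulk RNA, a change in the share of cells that make a transcript and a change in its amount per cell cannot be told apart.

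NOTCH3, a receptor on chromosome 19 of GRCh38 from 15159038 to 15200995, had the largest change of the 10. It was at 21.6, 29.2 and 24.05 RPM in BTLA-low and at 10.97, 9.89 and 12.8 RPM in BTLA-high. Every BTLA-low library was above every BTLA-high library. The level was 2.21-fold higher, a log2 fold change of 1.14 (standard error 0.15, limma adjusted p = 7.43e-04). It stayed called under each alternative run, among them leaving out any one library, at log2 fold changes of 0.97 to 1.24. The 3 tested genes most like NOTCH3 across the 6 libraries of the sort were FAM192A, MKRN1 and GLG1, with Pearson r of 0.999 for each on log2(RPM + 0.1), a description over libraries that share the same 2 groups.

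The other receptors gave no call in BTLA-low cells. NOTCH1, a broadly expressed receptor, was at 80.0, 106 and 85.1 RPM in BTLA-low and at 94.3, 97.3 and 111 RPM in BTLA-high. The groups overlapped, with a log2 fold change of -0.17 (95% interval -0.43 to 0.10, limma adjusted p = 0.316). NOTCH2, a receptor with close partial copies in the human genome, was at 29.8, 46.3 and 34.6 RPM in BTLA-low and at 38.5, 34.8 and 45.5 RPM in BTLA-high. These values also overlapped (log2 fold change -0.12, 95% interval -0.48 to 0.25, limma adjusted p = 0.625). The copy NOTCH2NLA averaged 0.120 RPM in BTLA-low and 0.181 RPM in BTLA-high, and reads of the shared part could have been split between them.

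Of the ligands, JAG2 alone was called in the sort. JAG2, a Jagged ligand on chromosome 14 from 105140982 to 105168824, was at 74.3, 75.1 and 72.5 RPM in BTLA-low and at 59.6, 64.4 and 62.7 RPM in BTLA-high. The groups were apart but close, 1.19-fold, with a log2 fold change of 0.25 (standard error 0.08, limma adjusted p = 0.0445). With median scaling its log2 fold change was 0.07 (adjusted p = 0.543), with no filter on low genes its adjusted p was 0.0757, and JAG2 lost its call when any library but BTLA-high 3 was left out (adjusted p = 0.0723 to 0.183). JAG1, a Jagged ligand with more reads than JAG2 or DLL1, was at 81.0, 108 and 89.9 RPM in BTLA-low and at 98.1, 89.5 and 131 RPM in BTLA-high. Its groups overlapped (log2 fold change -0.18, 95% interval -0.52 to 0.16, limma adjusted p = 0.398). DLL1, a Delta ligand, was near the floor, at 0.272, 0.675 and 0.493 RPM in BTLA-low and 0.284, 0.471 and 0.190 RPM in BTLA-high, which is 6 to 28 reads a library. The log2 fold change of 0.48 had a 95% interval from -0.44 to 1.40 (limma adjusted p = 0.413), so a difference was not detectable at this depth. DLL1 overlaps FAM120B on the opposite strand, which averaged 13.8 RPM in BTLA-low and 13.0 RPM in BTLA-high, and without strand in the counting their reads could not be told apart.

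Among the targets, HES1 rose in BTLA-low cells. HES1, a repressor and the best-known Notch target, lies on chromosome 3 from 194136148 to 194138732. It was at 32.8, 33.5 and 39.0 RPM in BTLA-low and at 19.2, 27.3 and 21.2 RPM in BTLA-high. All BTLA-low libraries were above all BTLA-high libraries, 1.57-fold, with a log2 fold change of 0.65 (standard error 0.14, limma adjusted p = 0.0103). The call was lost without BTLA-low 3 (adjusted p = 0.0575) and without BTLA-high 1 (adjusted p = 0.0569), and with the libraries brought to one median its log2 fold change was 0.47 (adjusted p = 0.0488). HES4, the second gene with the RBPJ letters in its promoter, gave no call. It was at 27.5, 22.7 and 28.1 RPM in BTLA-low and 23.2, 30.2 and 18.8 RPM in BTLA-high, with overlapping groups (log2 fold change 0.14, 95% interval -0.24 to 0.52, limma adjusted p = 0.574). HES1 and HES4, which both hold GTGGGAA, thus differed in their call, and the difference between them was not tested. NRARP, a feedback inhibitor of the Notch complex, was at 7.62, 9.57 and 6.62 RPM in BTLA-low and 8.22, 8.17 and 8.50 RPM in BTLA-high. Its log2 fold change was -0.08 (95% interval -0.43 to 0.27, limma adjusted p = 0.739). HEY1, a repressor of the HEY family, was low throughout, at 0.340, 0.386 and 0.308 RPM in BTLA-low and 0.510, 0.753 and 0.569 RPM in BTLA-high. Each BTLA-low library was below each BTLA-high library, yet at 10 to 32 reads a library the log2 fold change of -0.67 did not pass (95% interval -1.35 to 0.02, limma adjusted p = 0.139).

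**Figure D2:**
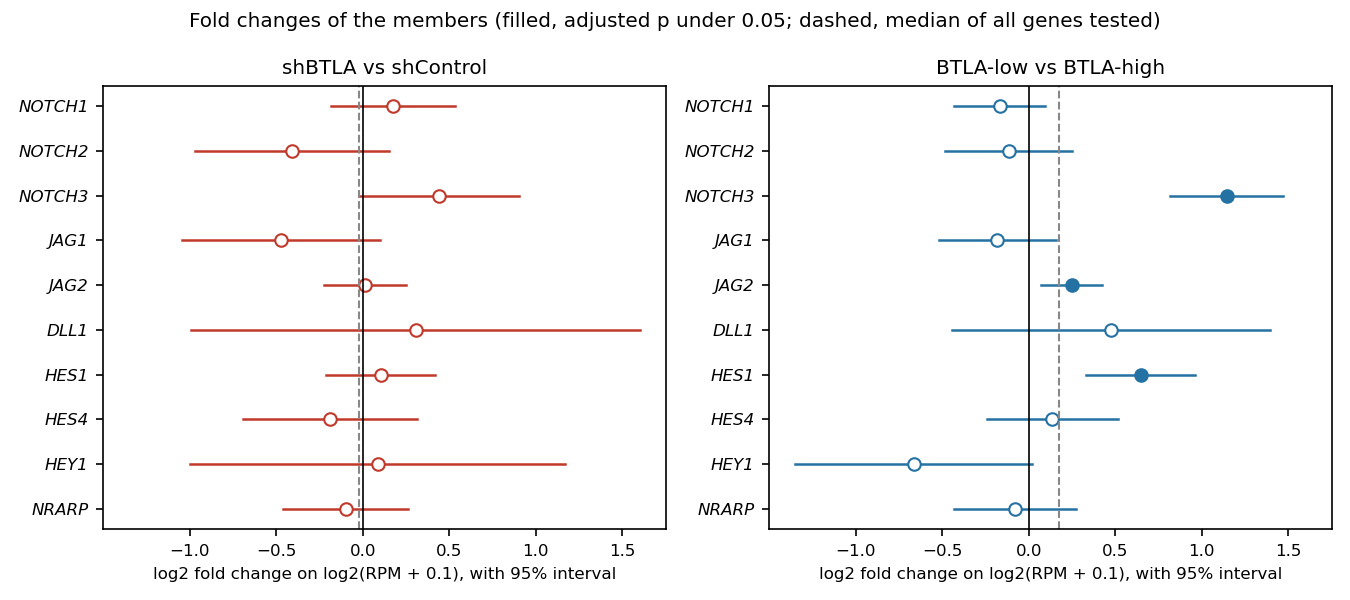
Log2 fold change of each gene with its 95% interval (x axis, on log2(RPM + 0.1)) for shBTLA against shControl at left and BTLA-low against BTLA-high at right; filled points have an adjusted p under 0.05 and the dashed line is the median of all genes tested. Only NOTCH3, HES1 and JAG2 in the sort are filled, and JAG2 at 0.25 lies close to the all-gene median of 0.18.

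Because the median of all genes tested was 0.18 above 0 in the sort, the members were also read against it. NOTCH3 stood 0.97, HES1 0.47, DLL1 0.30 and JAG2 0.07 above that median on the log2 scale. HEY1 stood 0.84 below it, JAG1 0.36, NOTCH1 0.35, NOTCH2 0.29, NRARP 0.26 and HES4 0.04. With the libraries brought to one median, the median log2 fold change of all genes was lowered by 0.169. NOTCH1 was then called lower (log2 fold change -0.34, limma adjusted p = 0.0233), and JAG1 was just short of a call (-0.36, limma adjusted p = 0.0519). All genes split into 2054 higher and 2238 lower in place of 3238 and 1057. Several measures of the libraries moved with these groups. Mitochondrially encoded genes took 6.76% to 7.24% of reads in BTLA-low and 5.25% to 5.79% in BTLA-high. Ribosomal protein genes took 6.43% to 8.22% in BTLA-low and 8.02% to 10.5% in BTLA-high. The 8 epithelial markers summed to 17660 to 20850 RPM in BTLA-low and 12030 to 15330 RPM in BTLA-high, and all 6 of those tested were called higher. Their part in the Notch values was not tested. The lymphocyte markers summed to 0.238 to 0.579 RPM in BTLA-low and 0.474 to 1.19 RPM in BTLA-high, with PTPRC at 0 in both. The endothelial markers reached at most 0.241 RPM in BTLA-low and 0.126 RPM in BTLA-high.

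**Figure D3:**
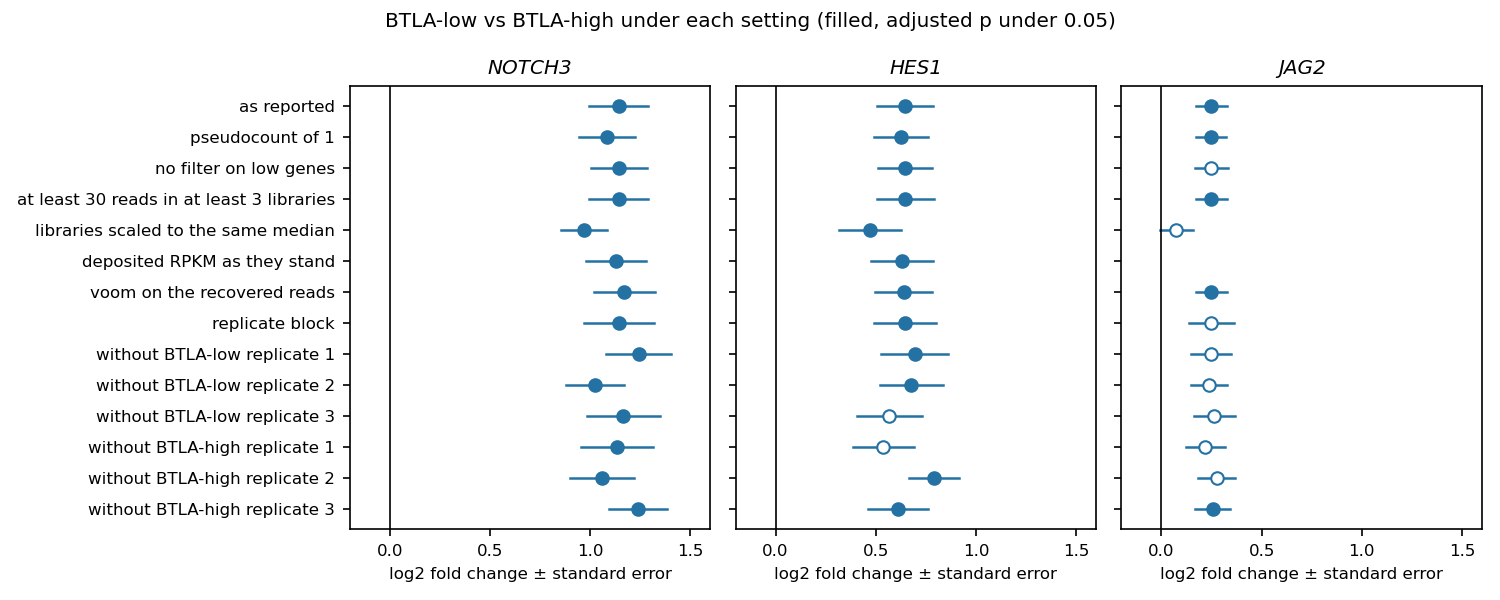
Log2 fold change (x axis) with its standard error for NOTCH3, HES1 and JAG2 in BTLA-low against BTLA-high under each alternative processing and with each library left out (y axis); filled points have an adjusted p under 0.05. NOTCH3 is filled in every row, HES1 is open without BTLA-low 3 or BTLA-high 1, and JAG2 is open in 8 of the 13 rows it has, with no point on the deposited RPKM, where it fell below the filter.

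In the knockdown, 0 of the 10 genes were called (limma, adjusted p under 0.05 over 16630 genes tested; 0 also by voom), where 1.47% of all genes were called. By unadjusted p under 0.05 the count was 0 too, where 10.8% of all genes passed. No member's groups were apart, where 17.9% of all genes did not overlap. NOTCH3 came closest. It was at 15.8, 11.4 and 13.5 RPM in shBTLA and 11.8, 7.74 and 10.6 RPM in shControl. The lowest shBTLA library lay below the highest shControl library, and the log2 fold change of 0.44 had a 95% interval from -0.02 to 0.90 (unadjusted p = 0.0596, limma adjusted p = 0.491). NOTCH3 thus passed the test in the sort and not in the knockdown, and the difference between the experiments was not tested. The tested genes most like NOTCH3 across the 6 knockdown libraries were ZNF503 (Pearson r 0.996), SAPCD2 (0.993) and DUSP6 (0.992). None of them was among the closest in the sort, but a difference in closest genes between the experiments was not tested.

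For JAG1 and NOTCH2, shControl 1 stood above every other knockdown library. JAG1 was at 99.7, 83.5 and 88.1 RPM in shBTLA and at 191, 88.7 and 115 RPM in shControl. Its log2 fold change was -0.47 (95% interval -1.04 to 0.10, limma adjusted p = 0.577), -0.17 without shControl 1 and -0.72 without shControl 2 (adjusted p = 0.0799). NOTCH2 was at 31.9, 28.8 and 34.0 RPM in shBTLA and at 62.4, 29.6 and 39.7 RPM in shControl. Its log2 fold change was -0.41 (95% interval -0.97 to 0.15, limma adjusted p = 0.643), -0.12 without shControl 1 and -0.66 without shControl 2 (adjusted p = 0.0915). That library also had the lowest share of ribosomal protein reads of the knockdown, 6.92% against 9.41% to 11.7% in the other 5, and its part in these values was not tested beyond leaving it out.

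The remaining members overlapped between shBTLA and shControl. NOTCH1 was at 87.1, 78.0 and 90.4 RPM in shBTLA and 94.6, 64.8 and 69.7 RPM in shControl, with a log2 fold change of 0.17 (95% interval -0.18 to 0.53). JAG2 was at 47.9, 44.9 and 46.6 RPM in shBTLA and 46.8, 44.7 and 46.7 RPM in shControl. This was the narrowest interval of the 10, a log2 fold change of 0.01 (95% interval -0.22 to 0.25). HES1 was at 23.97, 20.3 and 22.2 RPM in shBTLA and 18.7, 23.1 and 20.02 RPM in shControl (log2 fold change 0.10, 95% interval -0.21 to 0.42). HES4 was at 31.8, 32.3 and 27.6 RPM in shBTLA and 25.4, 48.3 and 34.2 RPM in shControl, where it varied more among the shControl libraries (log2 fold change -0.19, 95% interval -0.69 to 0.31). NRARP was at 7.11, 9.20 and 8.29 RPM in shBTLA and 8.31, 8.94 and 8.94 RPM in shControl (log2 fold change -0.10, 95% interval -0.46 to 0.26). For DLL1 and HEY1 the intervals were the widest. DLL1 was at 0.105, 0.561 and 0.383 RPM in shBTLA and 0.481, 0.194 and 0.103 RPM in shControl (95% interval of the log2 fold change -0.99 to 1.61). HEY1 was at 0.684, 0.393 and 0.766 RPM in shBTLA and 0.824, 0.227 and 0.825 RPM in shControl (-0.998 to 1.17). The limma adjusted p of these 7 genes ran from 0.761 to 0.975.

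The rest of the pathway was read from lists of 93 other Notch genes, of which 78 had enough reads in each experiment. In the sort, 17 rose and 5 fell in BTLA-low cells (limma, adjusted p under 0.05), beside the 19.1% and 6.25% of all genes, and the median log2 fold change was 0.15 beside 0.18 for all genes. The lists were written with earlier results of these data known. Among the genes that cut receptors, APH1B, a part of gamma-secretase, rose. It averaged 23.3 ± 1.16 RPM in BTLA-low and 16.4 ± 1.55 RPM in BTLA-high (SD, n = 3). Of the 9 genes of the nuclear complex, 2 rose. MAML3, a Mastermind coactivator, was at 12.01 to 19.3 RPM in BTLA-low and 5.64 to 9.04 RPM in BTLA-high (log2 fold change 1.204). KAT2B, a histone acetyltransferase, averaged 15.3 RPM in BTLA-low and 8.22 RPM in BTLA-high. RBPJ itself was at 34.6 RPM in BTLA-low and 36.8 RPM in BTLA-high and was not called (log2 fold change -0.09).

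Among the 15 corepressors, 4 rose. TLE2, a Groucho-family corepressor that HES proteins recruit, was at 5.38 to 6.99 RPM in BTLA-low and 1.90 to 3.11 RPM in BTLA-high (log2 fold change 1.32), with TLE5, CIR1 and L3MBTL3 as the others that rose. Of the 17 tested genes of endocytosis and turnover, 5 rose and 2 fell. NUMB, an inhibitor of Notch receptors, averaged 60.1 RPM in BTLA-low and 40.1 RPM in BTLA-high (log2 fold change 0.58), and DTX4, a Deltex ubiquitin ligase, 16.6 RPM in BTLA-low and 9.75 RPM in BTLA-high (0.76). DTX1, DTX3 and MIB2 also rose. DVL1, a Dishevelled protein of WNT signaling, fell to 81.8 RPM in BTLA-low, against 127 RPM in BTLA-high (log2 fold change -0.63), and NEDD4, a ubiquitin ligase, by 0.50 on the log2 scale. Among 8 tested genes known to respond to Notch beyond the HES and HEY families, SOX9 and ID1 rose and MYC and CCND1 fell. SOX9, a transcription factor, averaged 60.5 RPM in BTLA-low and 39.99 RPM in BTLA-high, and CCND1, the cyclin D1 gene, 284 RPM in BTLA-low and 379 RPM in BTLA-high.

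Of 13 airway fate genes, 4 had enough reads to be tested in the sort, and TP63 and FOXJ1 rose. KRT5 (log2 fold change 0.35, limma adjusted p = 0.484) and MCIDAS (log2 fold change 0.13, limma adjusted p = 0.651) were not called. TP63, a transcription factor of basal cells, was at 23.4 to 28.4 RPM in BTLA-low and 9.21 to 14.2 RPM in BTLA-high (log2 fold change 1.26, limma adjusted p = 8.53e-04). FOXJ1, a factor of ciliated cells, was low, averaging 1.51 RPM in BTLA-low and 0.673 RPM in BTLA-high (log2 fold change 1.02, limma adjusted p = 0.0441), a call that 4 of the 6 leave-outs did not keep. None of the 7 tested genes that glycosylate receptors was called by limma, and 2 were higher and 1 lower by unadjusted p alone. Over the 78 genes, 24 were higher and 7 lower by unadjusted p under 0.05, beside 28.8% and 9.99% of all genes. Leaving out 1 library kept 9 to 21 of the 22 calls, with 9 kept without BTLA-high 1 and 11 without BTLA-low 3. MAML3, TLE2, DTX4, DVL1, SOX9, ID1, CCND1 and TP63 were among those called whichever library was left out. The calls of APH1B, KAT2B, TLE5, CIR1, L3MBTL3, NUMB, DTX1, DTX3, MIB2, NEDD4, MYC and FOXJ1 were lost without BTLA-high 1, and of these all but KAT2B and NUMB also without BTLA-low 3. Median scaling ended the calls of TLE5, CIR1, DTX3, MIB2, ID1 and FOXJ1 (adjusted p = 0.0636 to 0.283).

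In the knockdown, 2 of the 78 genes fell and 0 rose (limma, adjusted p under 0.05; voom gave the same counts), beside 0.686% and 0.782% of all genes. By unadjusted p under 0.05, 11 were lower and 2 higher, beside 5.36% and 5.4% of all genes. FURIN, the protease that cuts Notch receptors before they reach the surface, fell to 95.2 ± 5.15 RPM in shBTLA, against 151 ± 18.0 RPM in shControl (SD, n = 3). Its log2 fold change was -0.66 (standard error 0.12, limma adjusted p = 0.0379). TP63 fell to 5.61 to 7.34 RPM in shBTLA, against 13.2 to 21.7 RPM in shControl (log2 fold change -1.33, standard error 0.22, limma adjusted p = 0.0292). The 8 epithelial markers summed to 12130 to 14720 RPM in shBTLA and 5840 to 9531 RPM in shControl, and the 5 fibroblast markers, led by LUM with DCN at 0, to 1.44 to 1.91 RPM in shBTLA and 2.59 to 3.66 RPM in shControl. By limma, 0 of the 7 tested epithelial markers and 0 of the 2 tested fibroblast markers were called at adjusted p under 0.05. By unadjusted p under 0.05, 4 epithelial markers were higher and 2 fibroblast markers lower. The part of either list in the values of FURIN and TP63 was not tested. The calls of FURIN and TP63 were both lost without shBTLA 1, 2 or 3 and without shControl 3, and both held without shControl 1 and 2. FURIN was not called in the sort (log2 fold change 0.10, limma adjusted p = 0.375).

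**Figure D4:**
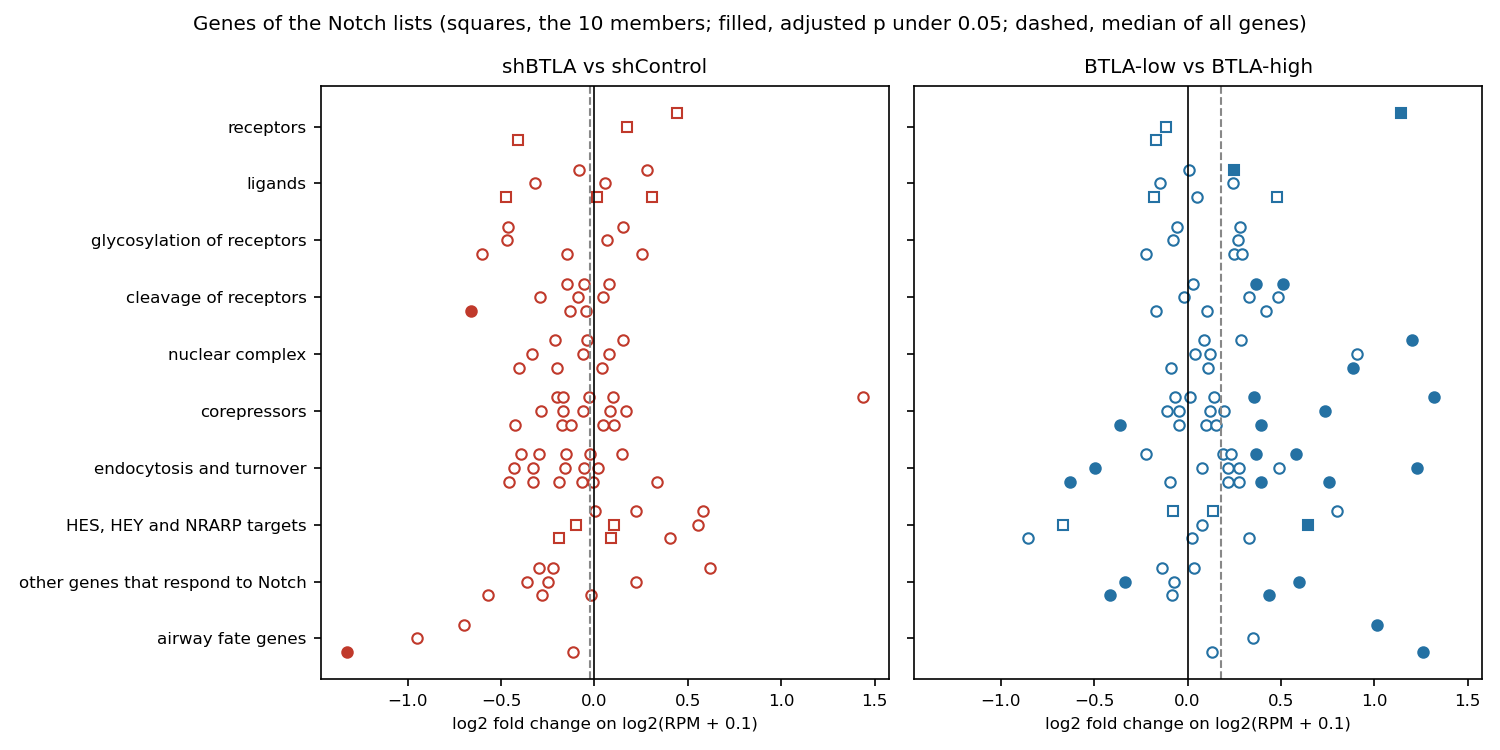
Log2 fold change (x axis) of each tested gene of the Notch lists by list (y axis), for shBTLA against shControl at left and BTLA-low against BTLA-high at right; squares are the 10 members, filled marks have an adjusted p under 0.05 and the dashed line is the median of all genes. Filled marks are 2 in the knockdown, FURIN and TP63, and 25 in the sort, 20 to the right of 0 and 5 to the left.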

How the data were processed

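RNA of 12 libraries was measured, 3 in each group, grouped by their labels. The authors used Trim Galore 0.6.6 for trimming, STAR for alignment to GRCh38 and featureCounts for counting over Ensembl genes, and deposited RPKM per library. Whether counting used strand or multi-mapped reads is not given in the sources. The authors' deposited comparison tables hold edgeR fold changes, likelihood ratios, p-values and FDR, of which none was used, and a mean log2 CPM, which was used only to check the recovered reads, together with gene names and positions.

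The deposited RPKM divide by the span of another gene, the one at the same position of the sorted list of gene IDs, so they compare a gene between libraries but not genes with each other. For 1056 of the 60617 genes that span was not available and a length was searched. Multiplied by the span or the searched length, 100% of values above 0 were whole reads within 0.02 of a read. The searched lengths were picked to give whole reads, so that share is no check for those genes. In a trial the search gave the right reads for 191 of 200 genes. These were drawn from genes whose span was available and that had reads in 6 or more of the 12 libraries. The trial did not cover genes with reads in fewer libraries. Reads were divided by the library total to give RPM. RPM per kb used merged exon lengths of GENCODE genes, from an annotation other than the one counted. Each experiment was fitted alone with limma 3.58.1 (R 4.3.3, lmFit and eBayes with trend) on log2(RPM + 0.1). A gene was tested if 3 or more of its 6 libraries had 10 or more reads, which all 10 members reached in both. The p-values were adjusted by Benjamini-Hochberg over all genes tested. The fit was tested on simulated data. No count model was the main test, and voom on the recovered reads was an alternative. Pairs of replicates differed by more than sampling noise. Other choices tried were the pseudocount, the filter, the scaling, the deposited RPKM, a replicate block and leaving out each library.

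The members and lists were chosen with earlier results of these data known. Named were all members, genes of the Notch lists with an adjusted p under 0.05 in either comparison or among the 2 smallest p of each, and the 3 genes most like the member with the smallest p by Pearson r. Some genes that this rule names are not reported here. RBPJ and NOTCH2NLA were named outside this rule, for their roles, and KRT5 and MCIDAS as the other tested airway fate genes. Python 3.11.15 with numpy 2.4.6, pandas 2.3.3 and scipy 1.17.1 was used.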

Additional observations from a re-analysis of the deposited data

Results flagged for a closer look

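Of the other Notch list genes, 3 had groups that did not overlap in either experiment and moved in opposite directions in the 2 experiments, and this difference was not tested. The 3 were 3.45% of the 87 Notch list genes, members included, tested in both experiments, beside 2.39% of all 16160 genes tested in both, which is near the background. TP63 had a log2 fold change of -1.33 in shBTLA against shControl and 1.26 in BTLA-low against BTLA-high. For DTX3, a Deltex-family gene, the values were -0.46 in the knockdown and 0.37 in the sort. For CCND1 they were 0.22 in the knockdown and -0.42 in the sort. Of these 6 values, those of DTX3 and CCND1 in the knockdown did not pass the adjusted threshold (limma adjusted p = 0.183 for DTX3 and 0.468 for CCND1). The call of DTX3 in the sort was lost under several alternatives, with libraries scaled to the same median among them (adjusted p = 0.247).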

How the results depend on the processing

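NOTCH3 kept its direction and its call in the sort under each alternative run. In the sort, scaling to the same median gave 1 member lower (NOTCH1, -0.34), other Notch genes 10 higher and 10 lower (17 and 5 as reported), and all genes 2054 higher and 2238 lower (3238 and 1057). The deposited RPKM gave other Notch genes 9 higher and 3 lower, and all genes 1889 and 639. Without one library, members higher ranged from 1 to 3, other Notch genes from 6 to 24 higher and 3 to 5 lower, and all genes from 1578 to 4603 higher and 418 to 1382 lower. In the knockdown, the deposited RPKM gave 0 other Notch genes lower (2 as reported) and all genes 70 higher and 45 lower (130 and 114). Without one library, other Notch genes ranged from 0 to 2 higher and 0 to 3 lower, and all genes from 22 to 291 higher and 3 to 263 lower. The causes were not tested.

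Same-numbered replicates deviated together in 2 of 3 pairs of the knockdown and in no pair of the sort, taking r over 0.1 (r of deviations 0.218, 0.406 and -0.039 in the knockdown, 0.0683, -0.373 and -0.165 in the sort). In the knockdown, shBTLA 3 correlated best with shControl 1 (0.256). In the sort, unlike numbers gave the highest r, BTLA-low 2 with BTLA-high 3 (0.41) and BTLA-low 1 with BTLA-high 2 (0.268). The numbers, which the labels do not tie to a shared culture, were therefore not taken as pairs. With the replicate block, the knockdown gave 1 other Notch gene higher (0 as reported) and all genes 260 higher and 285 lower, and the sort gave 2 members higher (JAG2 lost, adjusted p = 0.178), other Notch genes 10 higher and 2 lower and all genes 1726 and 461.

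Some members whose log2 fold change was not called changed sign. In the knockdown these were JAG2 (-0.0087 without shBTLA 1, -0.0081 without shControl 2, to 0.038), HEY1 (-0.00041 without shBTLA 1, -0.072 without shBTLA 3, -0.41 without shControl 2, to 0.34), NRARP (0.0011 without shBTLA 1, to -0.18), HES4 (0.049 without shControl 2, to -0.41) and DLL1 (-0.036 without shControl 3, to 0.79), each with the other end of its range over the libraries left out. In the sort these were HES4 (-0.038 with median scaling, -0.026 without BTLA-high 3, to 0.31), NOTCH2 (0.024 without BTLA-low 1, to -0.29) and NRARP (0.042 without BTLA-low 3, to -0.22). In the knockdown, DLL1 fell below the filter without shBTLA 2, shBTLA 3 or shControl 1, so its range there leaves out those runs. Depth limits DLL1 and HEY1, at 4 to 32 reads a library.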
